A study of Homo sapiens with 16 samples.

Results

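The genes described here are 10 of skeletal muscle, PAX7, MYF5, MYOD1, MYOG, MYH3, MYH8, ACTA1, CKM, TNNT1 and CHRNA1, followed through human kidney organoids, a culture that is meant to make kidney and also makes other cells. They were chosen by name, for their place in the order of myogenic steps, and are 10 of the 36601 genes of the single-cell matrices. Of the 3 bulk RNA-seq tables, set 1 listed 7 of them among 20121 genes, set 2 listed 9 among 27650 and the TNF set 9 among 21093. MYOD1 and CKM were missing from set 1, and MYF5 from all 3.

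All organoids came from 1 human embryonic stem cell line, UM77-2, differentiated without any genetic change that the labels name, so that nothing here speaks for other lines. Bulk RNA was taken from isolated organoid spheroids. Set 1 held 1 library each at days 21, 25 and 29 from seeding (D21, D25, D29), and set 2 held 2 libraries at each of these days. The TNF set held 1 library each of day 25 organoids given vehicle (VC, buffered saline) for 24 h, TNF at 5 ng/ml for 24 h, vehicle for 48 h and TNF for 48 h, TNF being an inflammatory cytokine. The single-cell libraries, 1 of vehicle and 1 of TNF at 5 ng/ml for 24 h, came from whole wells at day 24, which hold cells outside the spheroids too. No source used here says whether the 2 libraries of a day in set 2 came from separate cultures. The p-values of set 2 therefore measure only the spread between them, which may be technical.

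Skeletal muscle forms in steps. PAX7 is a transcription factor of muscle progenitor and stem cells, MYF5 and MYOD1 are the basic helix-loop-helix factors that commit a cell to the muscle lineage, and MYOG, myogenin, is the factor of the same family that acts as committed myoblasts leave the cell cycle and differentiate. Differentiating cells then make the parts of the fibre, among them the embryonic and perinatal myosin heavy chains MYH3 and MYH8, the skeletal alpha actin ACTA1, the slow troponin T TNNT1 that ties calcium to contraction, the muscle creatine kinase CKM that buffers ATP, and the acetylcholine receptor subunit CHRNA1 of the neuromuscular junction. Muscle is not part of the kidney, and such cells are counted as off-target in kidney organoids.

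On GRCh38, the factors lie at chr1:18630846-18748866 on the plus strand (PAX7), chr12:80716912-80719671 plus (MYF5), chr11:17719571-17722136 plus (MYOD1) and chr1:203083129-203086012 minus (MYOG). MYH3 at chr17:10628526-10657309 and MYH8 at chr17:10390322-10421950 lie in the same cluster of closely similar myosin genes on the minus strand. ACTA1 at chr1:229430365-229434104 (minus) is closely similar to the cardiac actin ACTC1, so the split of reads between such copies is uncertain. CKM (chr19:45306413-45322875), TNNT1 (chr19:55132698-55149206) and CHRNA1 (chr2:174747592-174787935) are on the minus strand.

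MYF5, MYOD1 and MYOG proteins bind the E-box, CANNTG, which reads the same on both strands. The 250 bases before the RefSeq start (GRCh38.p14) could be matched for 8 members, PAX7, MYF5, MYOG, MYH8, ACTA1, CKM, TNNT1 and CHRNA1. Of these, 6 held CANNTG, against 61.8% of all 35116 promoters, and 2, CKM and CHRNA1, held the E-box CAGCTG, against 14.0%. CHRNA1 held 3 E-boxes, as 10.4% of promoters hold 3 or more, and PAX7 and ACTA1 held none. The promoters of MYOG, CKM and CHRNA1 are shown, E-boxes in capitals, since these genes were highest in the same cells described next, with MYOG as the factor and CKM and CHRNA1 as the members with CAGCTG. They are on the minus strand at chr1:203086013-203086262, chr19:45322876-45323125 and chr2:174764473-174764722, written 5′ to 3′.
MYOG: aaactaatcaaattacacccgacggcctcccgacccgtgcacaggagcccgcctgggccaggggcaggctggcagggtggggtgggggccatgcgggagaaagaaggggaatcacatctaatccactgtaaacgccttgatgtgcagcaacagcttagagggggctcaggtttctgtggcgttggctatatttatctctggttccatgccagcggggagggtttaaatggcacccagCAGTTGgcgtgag
CKM: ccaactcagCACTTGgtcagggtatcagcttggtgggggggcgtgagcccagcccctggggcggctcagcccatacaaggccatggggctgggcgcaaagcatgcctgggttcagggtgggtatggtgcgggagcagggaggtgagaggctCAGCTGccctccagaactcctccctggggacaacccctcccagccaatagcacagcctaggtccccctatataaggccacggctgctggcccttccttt
CHRNA1: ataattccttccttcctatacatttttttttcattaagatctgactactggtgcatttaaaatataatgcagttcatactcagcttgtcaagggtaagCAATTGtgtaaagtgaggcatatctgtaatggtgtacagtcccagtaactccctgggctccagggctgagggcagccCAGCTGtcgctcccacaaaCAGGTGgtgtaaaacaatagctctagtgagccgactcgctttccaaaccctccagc
A match is a description of these letters, not a site shown to be bound. The CAGCTG lay 99 bases before the start in CKM and 75 before it in CHRNA1, and the CAGTTG of MYOG lay 13 before it.

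Single cells were examined first, as they show which cells held the transcripts. The vehicle library kept 11906 cells with over 500 genes, with a median of 6358.5 UMIs (unique transcript molecules counted), and the TNF library 23160 cells with a median of 2599. The lowest cell held 613 UMIs in the vehicle library and 1514 in the TNF library, and 82 barcodes were shared between them. With 1 library per condition no test between conditions was possible, and all intervals below are 95% exact Poisson or binomial intervals that cover counting error only. Clustering, done without the members and without any gene of the muscle lists, gave 14 clusters. In 2 of them at least 3 skeletal muscle markers were raised. With each library clustered alone, the cells named by these markers fell in the same cluster of their library (1134 vehicle and 1109 TNF cells). The split described next was therefore seen only where both libraries were clustered together.

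The first, led by SPOCK3, NEB and CYP26A1 and called SPOCK3-led muscle-like, held raised TTN, NEB, DES, ACTC1, KLHL41 and RYR1, parts of the sarcomere and of calcium release. It made up 893 cells or 7.50% (7.03 to 7.99) of the vehicle library and 776 cells or 3.35% (3.12 to 3.59) of the TNF library. The second, led by MYLPF, MYL1 and TNNC2 and called MYLPF-led muscle-like, had all 12 skeletal markers raised. It made up 116 cells or 0.974% (0.806 to 1.17) and 575 cells or 2.48% (2.29 to 2.69). Markers of cardiac muscle summed to between 1.09 and 2.70 CPM in these classes (CPM being the depth-scaled count, here of the UMIs summed over a class), with 1 to 4 of the 5 genes at 0. Podocyte markers summed to 65.3 CPM in the SPOCK3-led and 365 CPM in the MYLPF-led class of the vehicle library, and to 163 and 587 CPM in the TNF library. The whole libraries held 1262 and 1227 CPM of them. In the SPOCK3-led class stromal markers summed to 824 CPM with vehicle and 781 with TNF, and neuron markers to 501 and 450 CPM, each under its whole library. Chondrogenic markers there (155 and 161 CPM) stood above the whole libraries (102 and 149 CPM). A doublet score was used to mark a number of cells set in advance, 9.52% of the vehicle and 18.5% of the TNF library. Of the MYLPF-led cells it marked 24.1% with vehicle and 8.35% with TNF. The part of doublets in their levels was not tested beyond leaving the marked cells out.

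Among the factors, PAX7 and MYF5 were highest in the SPOCK3-led class and MYOD1 and MYOG in the MYLPF-led class, in both libraries at this clustering. With vehicle PAX7 was at 58.5 CPM (53.1 to 64.3) in the SPOCK3-led and 5.40 CPM (1.98 to 11.8) in the MYLPF-led class. MYF5 was at 5.04 CPM (3.55 to 6.94) in the SPOCK3-led class and had 0 UMIs in the other, with an interval of 0 to 3.32 CPM. Proliferating-like cluster 4 held MYF5 at 3.80 CPM (2.54 to 5.46), an interval that overlaps that of the SPOCK3-led class, and a finer clustering gave a proliferating-like cluster with MYF5 at 16.3 CPM (10.7 to 23.7) in the same library. Between the muscle-like classes both genes stood lower in the cells with the fuller set of contractile genes. MYOD1 was at 121 CPM (113 to 129) in the SPOCK3-led and 558 CPM (515 to 604) in the MYLPF-led class, and MYOG at 241 CPM (230 to 253) and 1920 CPM (1839 to 2003). With TNF the same 2 classes held PAX7 at 43.8 and 2.47 CPM, MYOD1 at 120 and 363 CPM and MYOG at 243 and 1228 CPM.

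All 6 fibre and junction genes were highest in the MYLPF-led class, in both libraries. With vehicle MYH3 was at 37.3 CPM (33.0 to 42.0) in the SPOCK3-led and 1328 CPM (1261 to 1398) in the MYLPF-led class. ACTA1 was at 12.9 CPM (10.5 to 15.8) and 964 CPM (907 to 1023), and CHRNA1 at 27.8 and 240 CPM. The perinatal myosin MYH8 (5.72 and 45.9 CPM) and the creatine kinase CKM (0.680 and 35.1 CPM), both of more mature muscle, showed the same order at few UMIs: CKM had 5 UMIs in the SPOCK3-led and 39 in the MYLPF-led class. TNNT1 was already at 648 CPM in the SPOCK3-led class, with 3124 CPM in the MYLPF-led class. With TNF, MYH3 was at 27.7 and 642 CPM, ACTA1 at 16.6 and 560 CPM, and TNNT1 at 712 and 1967 CPM.

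**Figure D1:**
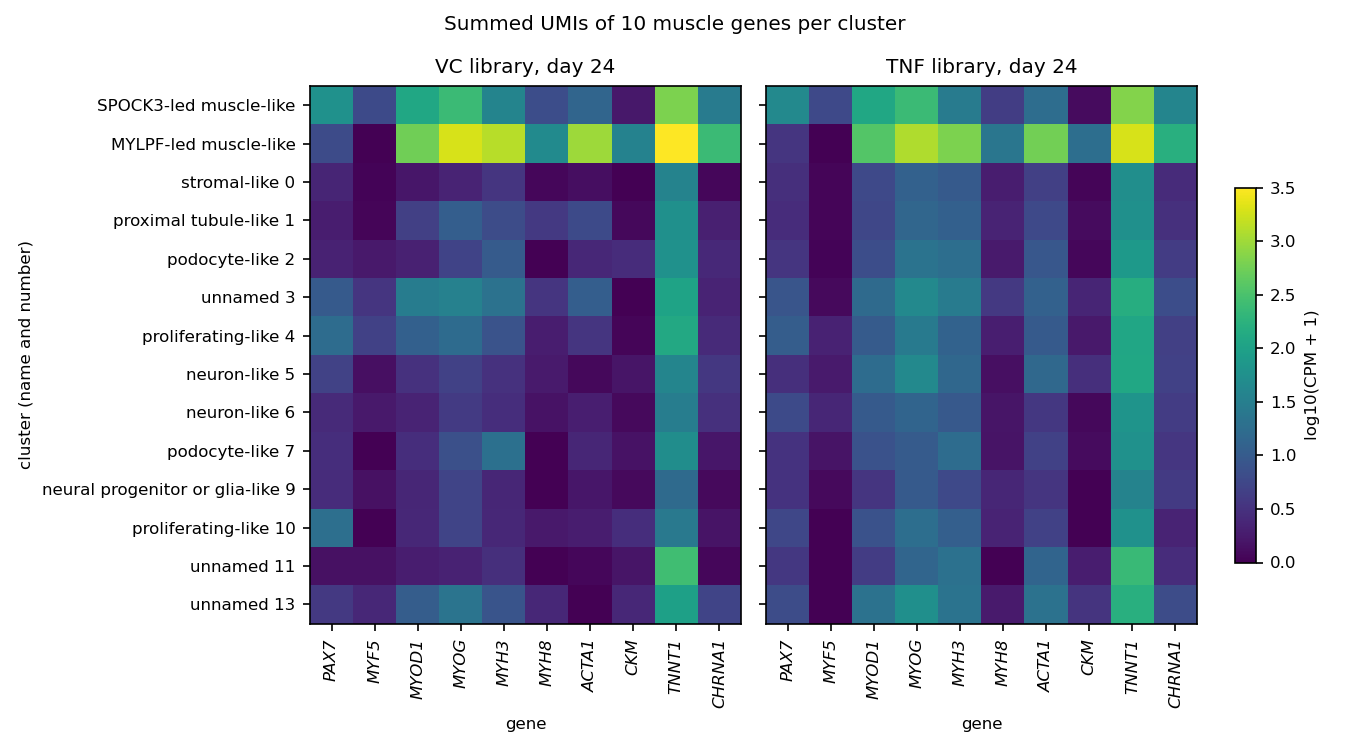
Heat map of the level of each member (columns, colour as log10 of CPM + 1) in each of the 14 clusters (rows, muscle-like classes on top), for the vehicle (VC) and TNF libraries. With vehicle PAX7 is at 58.5 and 5.40 CPM in the SPOCK3-led and MYLPF-led classes, and MYH3 at 37.3 and 1328 CPM.

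Outside both classes every member, pooled, was far lower than in the class where it was highest, but not 0. Pooled over the other 12 clusters, MYOG stood at 6.15 CPM with vehicle and 18.7 CPM with TNF, and MYH3 at 5.12 and 13.0 CPM. PAX7 stood at 3.71 and 3.45 CPM there, beside 5.40 and 2.47 CPM in the MYLPF-led class. CKM stood at 0.488 and 0.446 CPM there, beside 0.680 and 0.256 CPM in the SPOCK3-led class. With TNF, unnamed cluster 3 held MYH3 at 27.7 CPM, the level of the SPOCK3-led class. Unnamed cluster 13 held ACTA1 at 19.6 CPM with TNF, beside 16.6 CPM in the SPOCK3-led class. In podocyte-like cluster 2, a kidney cell type that should lack it, MYOG was at 4.04 CPM with vehicle and 20.5 CPM with TNF, where 1.56% and 6.49% of cells held a UMI at median depths of 5028 and 2642 UMIs. In the MYLPF-led class 96.6% of vehicle cells, at a median of 10193 UMIs, and 60.0% of TNF cells, at 2421, held one.

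The ratio among the members' UMIs differed between cells. Per 100 MYOG UMIs, the SPOCK3-led class of the vehicle library held 24.3 PAX7 UMIs, the MYLPF-led class 0.281 and the other clusters 60.3. For TNNT1 the same 3 values were 269, 163 and 1062. With TNF the 3 values were 293, 160 and 424 for TNNT1, and 18.0, 0.201 and 18.4 for PAX7. TNNT1 was thus counted outside the muscle-like cells in a higher proportion to MYOG than in either class, in both libraries. PAX7 was so with vehicle, while with TNF its proportion outside them was close to that of the SPOCK3-led class. The highest TNNT1 outside them was in an unnamed cluster led by AMHR2, STAR and LHX9, at 265 CPM with vehicle and 236 with TNF. The highest PAX7 outside them with vehicle was in proliferating-like cluster 10, at 18.0 CPM, and with TNF in proliferating-like cluster 4, at 9.76 CPM. At a finer clustering, vehicle cells led by HES5, MSX1, ZIC1 and WNT1, genes of the dorsal neural tube where PAX7 is also known to act, held PAX7 at 26.2 CPM, and at 3.17 CPM with TNF.

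Of all UMIs of the 10 members, the muscle-like classes held 68.5% (67.9 to 69.1) with vehicle and 56.6% (56.0 to 57.2) with TNF. By member, the share with vehicle ran from 39.8% for MYF5 (37 of 93 UMIs) and 49.4% for CKM (44 of 89) to 87.3% for MYOG (3904 of 4471). PAX7 at 56.0% and TNNT1 at 57.8% lay under MYOD1 (85.2%), ACTA1 (86.9%), CHRNA1 (83.6%) and MYH3 (78.7%). With each library clustered alone the vehicle share of MYF5 was 73.1% (68 of 93 UMIs), that of PAX7 66.3% and that of TNNT1 61.9%, and the lowest was CKM at 50.6%. With TNF no member exceeded 68.7%, the value of ACTA1. MYLPF-led cells were 11.5% (9.59 to 13.6) of the muscle-like cells with vehicle and 42.6% (39.9 to 45.2) with TNF. The class was not alike in both libraries. Thinned to 1500 UMIs a cell, its median cell held 65 UMIs of the 12 skeletal markers with vehicle and 13 with TNF. The TNF matrix held no cell under 1514 UMIs and its MYLPF-led cells had a median of 2421 UMIs, under the library's median, while those with vehicle had 10193, above it. The part of these depths in the shares was not tested.

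To place the members along differentiation without using them, each muscle-like cell was thinned to 1500 UMIs and ranked by its UMIs from 12 contractile and fusion genes (TTN, NEB, MYL1, MYLPF, TNNI1, TNNC2, MYBPC1, DES, ACTC1, KLHL41, RYR1 and MYMK), with the percentile counted among all 980 such cells with vehicle and 1351 with TNF. With vehicle 29 shallower cells were left out, and 539 of the 980 cells held none of these UMIs. Most of the 12 are sarcomere genes, and ACTC1 among them is closely similar to ACTA1. A high place of sarcomere members such as MYH3 and ACTA1 is therefore partly set by the ranking itself. PAX7 came lowest among the factors, with MYOD1 and MYOG close together above it. The 66 vehicle cells with a PAX7 UMI had a median percentile of 60.8 (quartiles 27.5 and 73.2). The lower of these quartiles is the rank shared by all cells without a contractile UMI, and the median that shared by cells with 1. The 139 cells with MYOD1 were at 88.8 (81.9 and 93.3) and the 197 with MYOG at 89.3 (82.6 and 94.6), quartiles that overlap almost wholly.

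Fibre genes stood higher, with MYH3 at a median percentile of 93.8 (98 cells) and ACTA1 at 94.8 (73 cells). CHRNA1 was at 88.2 (61 cells), beside the factors. TNNT1, in 388 cells, was at 78.1, between PAX7 and MYOD1. MYF5 (5 cells), CKM (5) and MYH8 (7) were seen in too few cells to be placed. With TNF the medians were 31.1 for PAX7 (51 cells), 66.5 for TNNT1 (725), 79.9 for MYOG (407), 83.4 for CHRNA1 (117), 83.9 for MYOD1 (234), 85.6 for MYH3 (258) and 89.4 for ACTA1 (192). Among the members placed, PAX7 and then TNNT1 had the lowest medians and MYH3 and ACTA1 the highest in the thinned cells of both libraries. Such a median can depend on how often a gene is counted, and 39.6% of vehicle cells held TNNT1, against 10.0% for MYH3. The place of TNNT1 is therefore not read as a step before MYOD1 and MYOG. The order among MYOD1, MYOG and CHRNA1 was not shared. With TNF the quartiles of MYH3 (69.1 and 94.1) overlapped almost wholly with those of MYOD1 (63.9 and 92.5). The place of MYH3 with TNF also depended on depth. With all UMIs of each cell, CHRNA1 (83.9) lay just above MYH3 (83.8) with TNF, and ACTA1 was at 86.8. With vehicle MYH3 (89.9) stayed above CHRNA1 (86.4).

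**Figure D2:**
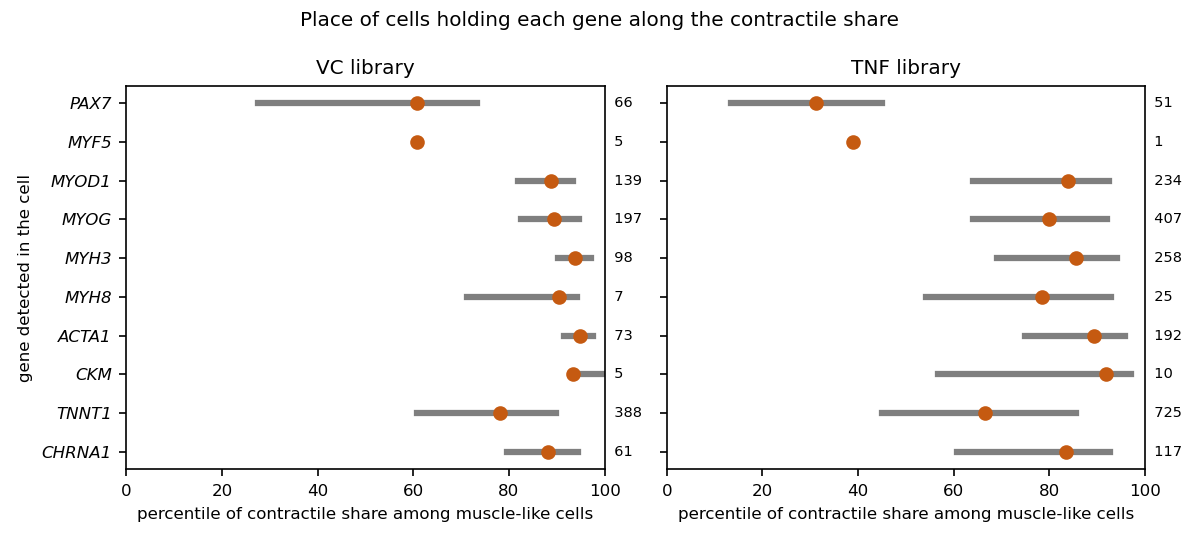
Contractile percentile of the thinned muscle-like cells that held a UMI of each member, median (point) and quartiles (bar), in the vehicle (VC) and TNF libraries, with the number of cells at the right. PAX7 cells lie lowest among members seen in over 50 cells, at medians of 60.8 and 31.1, and ACTA1 cells highest, at 94.8 and 89.4.

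Cells with PAX7 or MYF5 and cells with MYH3 or MYH8, the first and last steps, were compared cell by cell at 1500 UMIs. With vehicle 70 cells held the first pair and 102 the second, 1 cell held both, and their median percentiles differed by 32.8 points. With TNF the counts were 52, 270 and 3 cells, and the difference 54.1 points. Since the ranking rests mostly on sarcomere genes, a higher percentile of cells with MYH3 or MYH8 was partly set in advance. In both libraries the median of the first pair is the rank shared by cells with 1 contractile UMI. Cells with none were 539 of 980 with vehicle and 360 of 1351 with TNF. The percentiles and their differences can therefore not be compared between the libraries. The counts depend on depth: with all UMIs of each cell they were 295, 204 and 43 with vehicle and 149, 388 and 12 with TNF, and the percentile differences 28.5 and 52.9 points. Of 66 vehicle cells with PAX7, 9.09% (3.41 to 18.7) also held MYOG and 1.52% (0.0384 to 8.16) MYH3, against 20.1% and 10.0% of all muscle-like cells. Of 98 vehicle cells with MYH3, 90.8% (83.3 to 95.7) held MYOG and 63.3% (52.9 to 72.8) MYOD1. The shares were lower with TNF, where of 258 cells with MYH3 59.3% (53.0 to 65.4) held MYOG and 33.7% (28.0 to 39.8) MYOD1. MYOG was also counted without MYH3: 45.2% (38.1 to 52.4) of 197 vehicle MYOG cells held MYH3. With TNF this was 37.6% (32.9 to 42.5) of 407 MYOG cells. With all UMIs of each cell, 25.9% (20.9 to 31.4) of 286 vehicle cells with PAX7 also held MYOG and 28.0% (22.8 to 33.6) MYOD1, beside 27.6% and 26.2% of all muscle-like cells, which lay within these intervals. For MYH3 the share was 8.74% (5.74 to 12.6) beside 17.8% of all muscle-like cells, and for MYH8 8.04% (5.17 to 11.8) beside 5.35%. The lower share of MYOG in PAX7 cells was therefore not seen at full depth with vehicle, while that of MYH3 was.

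Levels in 4 steps of the contractile sum, a division chosen after the data were seen, showed the course of each gene. In vehicle cells with 0, 1 to 2, 3 to 9 and at least 10 contractile UMIs (539, 164, 103 and 174 cells), PAX7 was at 42.1, 69.1, 110 and 19.2 CPM. MYOG was at 4.95, 28.5, 362 and 1989 CPM, and MYOD1 at 7.42, 32.5, 214 and 801 CPM. PAX7 had its highest value in the third step (110 CPM, interval 64.1 to 176), while both later factors were highest in the last. The interval of PAX7 in the second step (40.3 to 111) overlapped that of the third, each from 17 UMIs. MYH3 had 0 UMIs in the first 2 steps, then 25.9 CPM (7.05 to 66.3) and 1004 CPM (886 to 1133). ACTA1 was at 0, 4.07, 6.47 and 559 CPM, with 1 UMI behind each of the middle values. TNNT1 was at 153, 720, 1385 and 3034 CPM, highest in the last step too. With TNF (360, 212, 342 and 437 cells) PAX7 was at 37.0, 53.5, 27.3 and 4.58 CPM and MYOG at 13.0, 81.8, 248 and 1256 CPM. MYH3 was at 7.41, 22.0, 101 and 635 CPM there, and its first value came from 4 UMIs.

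**Figure D3:**
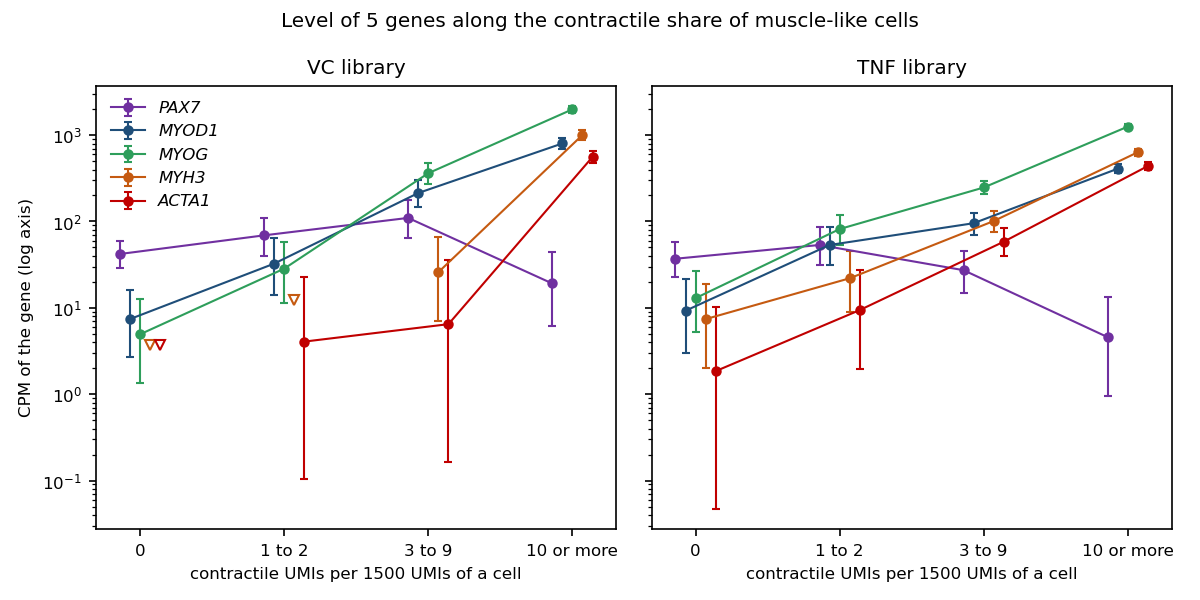
Level of PAX7, MYOD1, MYOG, MYH3 and ACTA1 (CPM) in muscle-like cells grouped by their contractile UMIs out of 1500, on a log axis with 95% Poisson intervals, for vehicle (VC) and TNF. An open triangle marks a count of 0, drawn at a fixed floor of 3 counts. With vehicle MYOG is at 1989 CPM in the last step, where PAX7 is at 19.2 CPM.

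Sarcomere and junction genes of the fixed lists were highest mainly in the MYLPF-led class, and the progenitor and commitment genes were split between both. Of 21 sarcomere genes 17 had at least 20 UMIs, and all 17 were highest in the MYLPF-led class in both libraries. Among the 21 are TTN, NEB, MYL1, MYLPF, TNNI1, TNNC2, MYBPC1, DES, ACTC1 and KLHL41, which are also markers that named the class. For these genes the order was largely set by that naming and is no separate result. RYR1 of the excitation and energy list and MYMK of the progenitor list are such markers too. ACTC1, the cardiac actin that early skeletal muscle also makes, stood at 702 CPM in the SPOCK3-led and 7209 CPM in the MYLPF-led class with vehicle. Of 19 genes of progenitors and commitment, 9 were highest in the SPOCK3-led and 8 in the MYLPF-led class with vehicle, and 10 and 8 with TNF. The cadherin gene CDH15 (95.7 and 413 CPM) and the transcription factor gene MEF2C (56.5 and 711 CPM) were among those higher in the MYLPF-led class. PAX3, the progenitor factor beside PAX7, was at 109 and 10.8 CPM, LBX1 of migrating limb muscle precursors at 68.5 and 6.30 CPM, and the fusion peptide gene MYMX at 43.0 and 175 CPM. Of 8 junction genes 6, and of 12 genes of excitation and energy 11 with vehicle and 10 with TNF, were highest in the MYLPF-led class.

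In bulk RNA fewer cells of a type and less RNA per cell cannot be told apart, and a change of organoid makeup moves every gene. Depth was between 19073609 and 30282025 reads in set 2, 25508651 and 29408687 in set 1, and 49948198 and 59246286 in the TNF set. Bulk CPM are not length-scaled, so levels are compared only within a gene. In set 1 all 7 listed members were higher at D25 than at D21 and higher again at D29, as 24.7% of all genes were. With 1 library a day there is no replicate check.

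In set 1 PAX7 was at 5.88, 11.2 and 14.3 CPM at D21, D25 and D29, MYOG at 2.65, 13.0 and 23.4 CPM, and MYH3 at 20.5, 46.1 and 98.4 CPM. ACTA1 was at 1.29, 5.19 and 11.7 CPM. The ratio of D29 to D21 was highest for ACTA1 (9.04) and MYOG (8.81), and lowest for PAX7 (2.43) and TNNT1 (2.45). MYH8 went from 1.39 to 2.05 and 6.08 CPM, TNNT1 from 11.1 to 19.9 and 27.2 CPM, and CHRNA1 from 0.782 to 2.35 and 3.02 CPM. The median difference of the 7 members from D21 to D29 was 1.56 on the log2(CPM + 1) scale, on which all bulk differences are given and which understates the change of low genes, beside a median of 0.00 over all genes.

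In set 2 most members were lowest at D25 and all 9 were higher at D29 than at D25. The commitment factor MYOD1 was at 0.876 and 1.34 CPM in the 2 D21 libraries, 0.734 and 0.718 CPM at D25, and 6.18 and 3.90 CPM at D29. MYOG was at 5.12 and 9.93 CPM at D21, 2.57 and 2.74 CPM at D25, and 23.4 and 15.2 CPM at D29. For both genes the libraries of the 3 days did not overlap, with D25 lowest and D29 highest. MYH3 was at 19.0 and 26.1 CPM, then 13.3 and 11.4 CPM, then 55.7 and 40.0 CPM, and ACTA1 at 1.48 and 1.23 CPM, then 1.15 and 0.853 CPM, then 6.01 and 6.51 CPM. These 2 fibre genes had the same order of days. The share of all genes with this order of the 3 days was not counted, so the order is not read as particular to these genes. PAX7, upstream of the others, was at 4.70 and 6.96 CPM, then 2.99 and 5.52 CPM, then 11.6 and 10.1 CPM, with overlap between D21 and D25.

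From D21 to D25 in set 2, limma called 1 of 9 members, MYH8, which fell by 0.68 (SE 0.15, adjusted p = 0.0392), while 5.37% of all genes were called, 1.99% lower and 3.39% higher. Its CPM were 1.01 and 1.34 at D21 and 0.472 and 0.224 at D25, the last from 5 reads. MYOG differed by -1.16 (adjusted p = 0.0637) and MYH3 by -0.81 (adjusted p = 0.0511) without passing. In 7 of 9 members both D25 libraries were under both D21 libraries, as in 25.6% of all genes. The call of MYH8 was lost in 7 of 12 alternatives: without either D21 library or either D25 library, with DESeq2, without the trend and with log2(CPM + 0.1).

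From D25 to D29 in set 2, 5 of 9 members rose, against 2.08% of genes called, 1.25% higher and 0.825% lower. MYOG rose by 2.44 (SE 0.29, adjusted p = 0.0133), MYH3 by 1.86 (SE 0.19, adjusted p = 0.0103) and ACTA1 by 1.85 (SE 0.16, adjusted p = 0.00786). MYOD1 rose by 1.77 (SE 0.21, adjusted p = 0.0133) and TNNT1 by 0.85 (SE 0.14, adjusted p = 0.0285). PAX7 differed by 1.21 (adjusted p = 0.0599). For all 9 the lower D29 library exceeded the higher D25 library, as for 22.1% of genes. Without D25 replicate 1, and without D25 replicate 2, none of the 9 was called and limma called 0 genes in all, where 3383 and 3715 genes had an unadjusted p under 0.05, 8 of the members among them each time.

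From D21 to D29 in set 2, 5 of 9 members rose, against 18.4% of genes called, 10.0% higher and 8.33% lower. ACTA1 rose by 1.62 (SE 0.16, adjusted p = 0.000505) and MYOD1 by 1.49 (SE 0.21, adjusted p = 0.00240), CPM ratios of 4.62 and 4.55, and both were called in all 13 alternatives. MYOG rose by 1.28 (SE 0.29, adjusted p = 0.0186), MYH3 by 1.05 (SE 0.19, adjusted p = 0.00707) and TNNT1 by 0.57 (SE 0.14, adjusted p = 0.0251). The remaining 4 did not pass: PAX7 differed by 0.81 (adjusted p = 0.0650), CHRNA1 by 0.79, MYH8 by -0.15 and CKM by 0.13, CKM resting on 10 and 11 reads at D21 and 16 and 17 at D29. In 8 members both D29 libraries were above both D21 libraries, beside 27.1% of genes, and MYH8 overlapped. Without D21 replicate 1 the calls were 2, MYOD1 and ACTA1, and without D29 replicate 1 they were 3, those and MYH3.

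**Figure D4:**
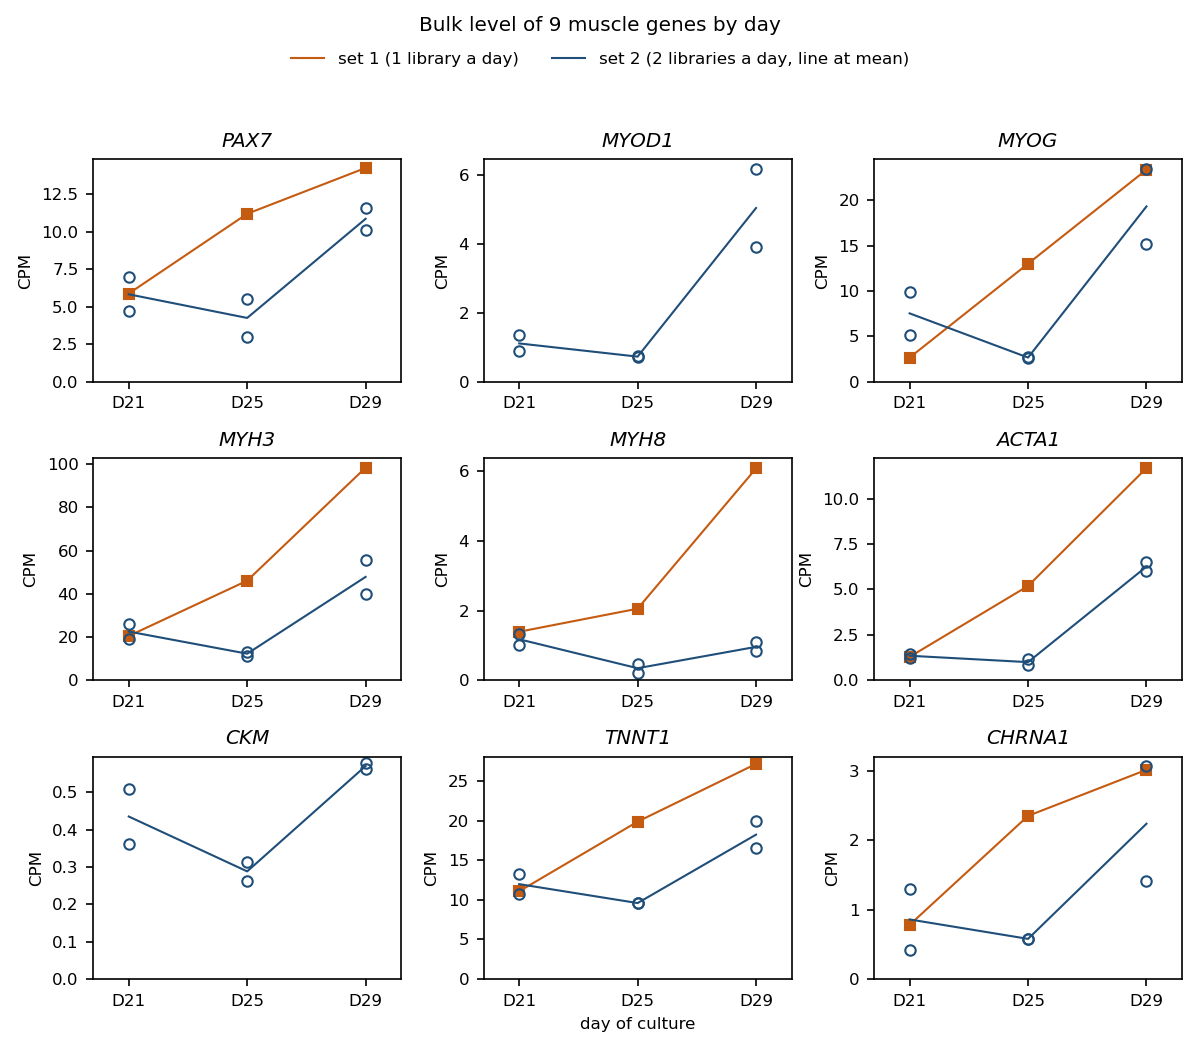
CPM of each listed member by day in set 1 (filled squares, 1 library a day) and set 2 (open circles, 2 libraries a day, line through their mean), on linear axes from 0. In set 1 each line ends highest, as MYOG at 2.65, 13.0 and 23.4 CPM, while in set 2 MYOG is lowest at D25 (2.57 and 2.74 CPM).

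From D21 to D25 in set 2 more genes of the related lists fell than rose, read against 5.37% of all genes called, 1.99% lower and 3.39% higher. Of 17 listed sarcomere genes DES rose by 0.74 and 2 fell, among them the myosin-binding protein gene MYBPC1 by 1.15. Of 19 progenitor and commitment genes 3 fell, with EYA1 at -1.12, of 10 excitation and energy genes 3 fell, and of 8 junction genes 1 rose, LRP4 by 0.28. From D25 to D29, where 2.08% of all genes were called and 1.25% higher, 11 of the sarcomere genes rose and 0 fell (0 also at an unadjusted p under 0.05 and with edgeR), with ACTC1 up by 2.10 and the light chain MYL1 by 1.86, beside a list median of 0.70 and an all-gene median of -0.01. Of the progenitor and commitment genes 6 rose, with LBX1 up by 1.87 and the RNA-binding protein gene RBM24 by 1.52, and 3 junction genes rose, among them the receptor subunit CHRND by 1.45. Of the excitation and energy genes 0 passed in limma, where 8 were higher and 1 lower at an unadjusted p under 0.05 and 2 were called higher by edgeR. From D21 to D29, where 18.4% of all genes were called, 10.0% higher and 8.33% lower, the sarcomere list gave 8 higher and 2 lower, with DES, which mural cells also make, up by 1.44 and TNNT2, the troponin T of heart and early skeletal muscle, down, at -1.11. The progenitor list gave 5 higher and 3 lower, with LBX1 at 2.11 and EYA1, a developmental cofactor that kidney progenitors use too, at -0.91.

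Markers of other cells moved with day too. In set 2 stromal markers summed to between 3314 and 3703 CPM at D21, 7907 and 8030 CPM at D25, and 10131 and 12379 CPM at D29, with 5 of 6 called higher at D29 than D21. Podocyte markers summed to between 10464 and 11009 CPM at D21, 8581 and 8757 CPM at D25, and 3333 and 7176 CPM at D29, with 5 of 7 called lower from D21 to D29. Smooth muscle or mural markers summed to between 233 and 252 CPM at D21, 472 and 474 CPM at D25, and 495 and 571 CPM at D29, with 5 of 6 called higher from D21 to D29, and of the neuron markers 6 of 7 were called higher. Proliferation markers summed to between 585 and 617 CPM at D21, 421 and 452 CPM at D25, and 556 and 585 CPM at D29, with 4 of 6 called lower from D21 to D25 and 2 called higher from D25 to D29. In set 1 stromal markers went from 5774 to 12012 and 13458 CPM, mural markers from 271 to 419 and 540 CPM, and skeletal muscle markers from 193 to 315 and 491 CPM. Skeletal muscle markers summed to between 221 and 261 CPM at D21, 203 and 205 CPM at D25, and 288 and 356 CPM at D29 in set 2, the same order of days as MYOG and MYH3. Of the cardiac markers 4 were listed in set 2, between 0.653 and 2.10 CPM in sum. The part of the other cell types in the members' values was not tested.

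In the TNF set 1 member passed the test for treatment, the differentiation factor MYOG. It was at 5.32 CPM with vehicle and 3.44 CPM with TNF at 24 h, and at 11.4 and 9.72 CPM at 48 h. With time as a term limma called it lower with TNF, by 0.36 (SE 0.12, adjusted p = 0.0441), as 1 of 9 members, against 19.3% of genes called, 10.8% lower and 8.42% higher. The call was lost with DESeq2, without the trend and with treatment as the only term. The 2 libraries of each arm were taken at different hours, and their ranges overlapped. The spread behind the limma p-values of the TNF set is how far the arms differed in their change with hours, moderated over all genes. It is not a spread between replicates.

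PAX7 was at 3.24 CPM with vehicle and 1.64 CPM with TNF at 24 h, and at 4.44 and 4.05 CPM at 48 h, a fitted difference of -0.40 (adjusted p = 0.0567). MYOD1 was at 0.829 and 0.343 CPM at 24 h, the latter from 18 reads, and at 2.30 and 2.23 CPM at 48 h. MYH3 was at 10.1 and 11.1 CPM at 24 h and 21.1 and 19.5 CPM at 48 h. For all 3 genes both 48 h libraries were above both 24 h libraries. TNF was under vehicle in 7 of 9 members at 24 h and in 8 of 9 at 48 h, with 1 library a side each time. The share of all genes lower with TNF was not counted for a single hour. These counts are therefore not read as a result about the members. CKM alone had both TNF libraries (0.171 and 0.287 CPM) under both vehicle libraries (0.534 and 0.380 CPM), as 27.4% of genes did. Podocyte markers moved with TNF, from 6530 to 3930 CPM at 24 h and from 6048 to 2867 CPM at 48 h, with all 7 called lower, and skeletal muscle markers summed to 160 and 120 CPM at 24 h and 208 and 151 CPM at 48 h.

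The hours in the TNF set were compared after the values were seen. From 24 h to 48 h 7 of 9 members rose, against 9.48% of genes called, 4.63% higher and 4.85% lower, and in 8 of 9 both 48 h libraries were above both at 24 h, as in 21.3% of genes. MYOG rose by 1.12 (adjusted p = 1.78e-05), MYOD1 by 1.05 (adjusted p = 5.20e-05), MYH3 by 0.87 (adjusted p = 3.37e-05) and PAX7 by 0.65 (adjusted p = 0.00742). ACTA1 rose by 0.64, TNNT1 by 0.62 and CHRNA1 by 0.44, while MYH8 at 0.29 and CKM at -0.01 did not pass. In the vehicle libraries alone the 48 h to 24 h CPM ratio was 2.78 for MYOD1, 2.72 for ACTA1, 2.13 for MYOG and 2.09 for MYH3. Each hour of each arm was 1 library, so the limma p-values for hours measure no spread between replicates either. Hours of handling and a difference between wells cannot be told apart. Over the same hours 5 of 7 neuron, 4 of 6 proliferation and 3 of 6 stromal markers were called higher and 6 of 7 podocyte markers lower, and the part of these cells in the members' rise was not tested.

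**Figure D5:**
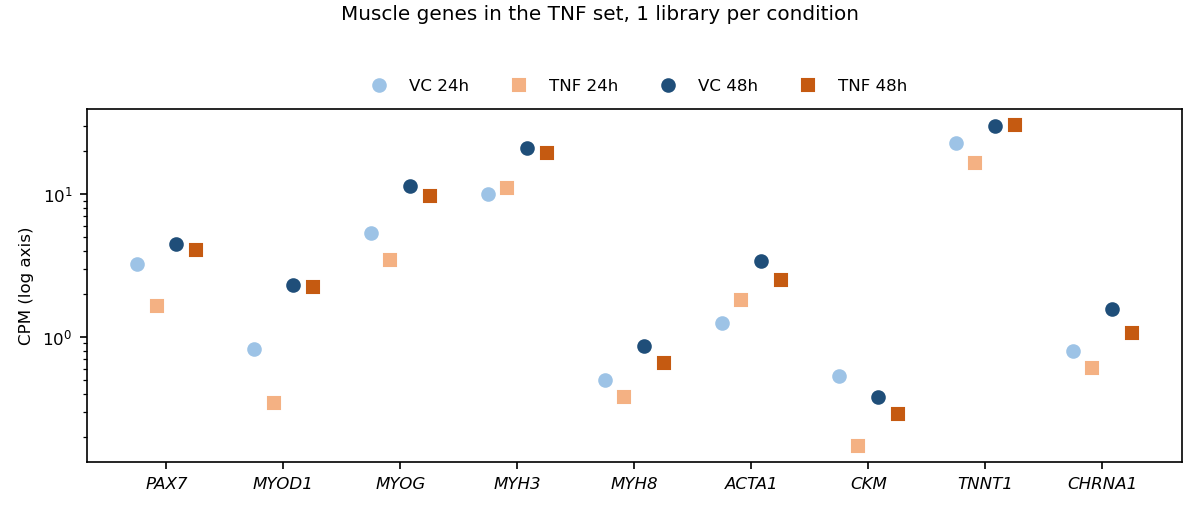
CPM of each listed member in the 4 libraries of the TNF set, by hours and treatment (VC or TNF), 1 point each, on a log axis. Most members sit higher at 48 h than at 24 h in both arms, as MYOG at 5.32 and 11.4 CPM with vehicle.

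Of the related lists in the TNF set, treatment gave calls in both directions, read against 19.3% of all genes called, 8.42% higher and 10.8% lower: 1 higher and 3 lower of 16 listed sarcomere genes, with the giant filament gene NEB at -0.96, and 1 higher and 3 lower of 10 excitation and energy genes, with the calcium release channel RYR1 at -0.82. Of 16 progenitor and commitment genes 1 rose, SIX4 by 0.84, and 2 fell, FGFR4 by 0.42 and CDH15 by 0.40. Of 7 junction genes CHRND rose by 0.41, and DOK7 and CHRNB1 fell by 1.04 and 0.25. The counts of sarcomere and progenitor genes lay near the share of all genes. From 24 h to 48 h, where 9.48% of all genes were called and 4.63% higher, 8 sarcomere, 4 progenitor and 2 junction genes rose and 0 fell, also at an unadjusted p under 0.05, with ACTC1 at 1.13.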

How the data were processed

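Bulk libraries were made with the NEBNext Ultra II kit. The authors aligned reads with STAR 2.7.8a to GRCh38 (Ensembl 104), counted them per gene with HTSeq and deposited voom-type values, which the numbers show to be log2(CPM + 1). Every value gave back a whole read count, with 0.5 added before scaling, at a tolerance of 0.01 reads. The single-cell files, per the file headers, are UMI counts deposited from Cell Ranger. A day 25 single-cell sample was not analysed here.

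Bulk values were tested with limma 3.58.1 (R 4.3.3), with an intensity trend, over all genes of a table, with Benjamini-Hochberg adjusted p under 0.05 as a call. Set 2 was fitted by day and the TNF set by treatment and hours. edgeR 4.0.16 and DESeq2 1.42.0 were run on the recovered reads as alternatives, beside a pseudocount of 0.1, a mean of at least 1 CPM, no trend, median centring, a replicate block and leaving out each library. The comparison of hours was added after the data were seen.

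Cells with over 500 genes were kept. The libraries were aligned with a separately written version of Harmony's steps, over 30 principal components of 2000 variable genes per library. Treatment differs between the libraries too, so the alignment does not separate it from library effects. Cells were then clustered with Leiden at 0.25 (leidenalg 0.10.2). A cluster was named where at least 3 markers reached 20 CPM and a log2 fold of 1. Doublets were ranked by Scrublet score, since its own threshold marked 0 vehicle cells, and were kept in the main values. The finer clustering used a resolution of 1. Scripts were tested on simulated data. Coordinates are GENCODE's on GRCh38 and promoters RefSeq's on GRCh38.p14. The members and lists were chosen with earlier results of these data known, and genes outside the members are named for the largest called rises and falls of a list (at most 4), and in single cells for their role, after their values were seen.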

Additional observations from a re-analysis of the deposited data

Results flagged for a closer look

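From D21 to D25 the single libraries of set 1 and all libraries of set 2 moved in opposite directions for 5 members. On the log2(CPM + 1) scale, MYOG differed by 1.93 in set 1 and by -1.16 in set 2, and MYH3 by 1.13 and -0.81. ACTA1 differed by 1.43 and -0.23, TNNT1 by 0.79 and -0.29, and MYH8 by 0.35 and -0.68. PAX7 (0.83 and -0.40) and CHRNA1 (0.91 and -0.19) also had opposite signs, but their D21 and D25 libraries overlapped in set 2. The share of all genes with opposite directions was not counted. The difference between the sets was not tested, since set 1 has 1 library a day, and the sets were normalized in separate tables.

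In the TNF set 3 members had TNF above vehicle at one hour and under it at the other. MYH3 differed by 0.13 at 24 h and -0.11 at 48 h, ACTA1 by 0.33 and -0.33, and TNNT1 by -0.44 and 0.019. With 1 library for each hour and treatment this difference was not tested.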

How the results depend on the processing

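Over single members the alternatives left 342 values on the same side of the threshold, uncalled values that changed sign included. That number also holds the count of members called from 24 h to 48 h, unchanged with edgeR. In addition 31 values passed the threshold, 34 no longer passed it and 0 called values turned. ACTA1 under TNF (-0.0026), not called, turned with median centring, and its alternatives reached 0.062. CHRNA1 from D21 to D25 (-0.19), not called, reached 0.16 in an alternative. The count of members called from D21 to D25 (1) was 2 with DESeq2, with a mean of at least 1 CPM and with the replicate block, 3 with edgeR and with median centring, and 0 without the trend and with log2(CPM + 0.1), where 3 members had an unadjusted p under 0.05. Leaving out 1 library gave 0 to 3, 0 without D21 replicate 2 or either D25 library and 3 without either D29 library. From D25 to D29 (5) it was 0 with log2(CPM + 0.1), where all 9 members had an unadjusted p under 0.05 and limma called 0 of all genes, and 0 to 5 on leaving out 1 library. From D21 to D29 (5) it was 2 to 6 on leaving out 1 library. For TNF (1) it was 0 with DESeq2 and with treatment alone, where 0 members had an unadjusted p under 0.05, and 0 without the trend, where 4 did. It was 2 with edgeR, log2(CPM + 0.1), a mean of at least 1 CPM and median centring. The replicate block gave 6 calls both from D25 to D29 and from D21 to D29. Equal replicate numbers correlated at 0.102, 0.0611 and 0.202 between days and were not taken as pairs. The cause of these changes was not tested.

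The share of member UMIs in muscle-like cells with vehicle (68.5%) was 69.6% without marked doublets and 71.8% with each library clustered alone. With TNF (56.6%) it was 61.4% and 55.3%, and 58.0% in cells over 1000 genes. Each library clustered alone gave no split into SPOCK3-led and MYLPF-led classes, so the levels by class rest on the joint clustering. The percentile gap with vehicle (32.8) was 31.8 in cells over 1000 genes, 31.8 with each library alone and 28.5 with all UMIs. With TNF (54.1) these were 51.6, 51.8 and 52.9. Members with few reads (CKM, MYH8, MYF5) are limited by depth, and 1 line, 2 libraries a day and 1 single-cell library per condition limit the rest.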

Other observations

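At a clustering resolution of 1, a proliferating-like cluster of 122 vehicle and 130 TNF cells, led by histone genes, CYP26A1 and LBX1, held myogenic factors. With vehicle it held PAX7 at 47.6 CPM (79 UMIs, 10.2% of the library's PAX7 UMIs) and MYF5 at 16.3 CPM (27 UMIs, 29.0% of the library's MYF5 UMIs), the gene of commitment that was too sparse to place among the muscle-like cells. PAX3 was at 109 CPM and LBX1 at 94.6 CPM there, beside the cell cycle genes MKI67 at 312 CPM and TOP2A at 366 CPM. MYOD1 was at 35.0 CPM, MYOG at 48.2 CPM and MYH3 at 7.23 CPM, and ACTA1 had 0 UMIs. The cluster was singled out after its values were seen.

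Over 28 points, 14 clusters in each of 2 libraries that share donor line and protocol, the genes whose levels followed each factor most closely were, as a description, CYP26A1 (Pearson r = 0.903), SPOCK3 (0.898) and OPN3 (0.892) for PAX7. For MYOD1 they were KLHL41 (0.983), MYMX (0.981) and MRLN (0.977), and for MYOG KLHL41 (0.983), MRLN (0.980) and ACTC1 (0.975). For MYH3 they were TNNI2 (0.978), TNNC2 (0.971) and C1orf105 (0.971). Depth differed between the points.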
